A study of Mus musculus with 72 samples.

Results

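Liver gene expression in the middle of the dark phase was compared with that in the middle of the light phase in mice held on night-restricted feeding. The comparison used 6 of the 72 libraries of the series: the 3 night-restricted libraries at zeitgeber time 18 (ZT18, 18 h after lights on) and the 3 at ZT06. They were chosen by their labels alone. All mice were wild-type C57BL/6J males, 43 to 49 days old at the start, kept in 12 h of light and 12 h of dark with free access to water. In this paradigm food was restricted to the night, so ZT06 falls in the part of the day without food and ZT18 in the part with food, but the sources used here do not give the hours of food access or the time on the schedule. The other 66 libraries covered the remaining night-restricted times (ZT02, ZT10, ZT14 and ZT22) and 3 other paradigms, namely food ad libitum, an arrhythmic schedule, and an arrhythmic schedule to which mice had adapted incompletely, with 3 libraries per paradigm and time and the same strain, sex and housing. Whether each replicate was a different animal is not stated, so the spread behind every p-value is that between libraries and may be technical.

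The liver alternates between storing and releasing fuel. After a meal, glucose and insulin promote glycogen deposition and the synthesis of fatty acids and cholesterol, while between meals glycogen is broken down, fatty acids are oxidised and autophagy recycles cell contents. In parallel, hepatocytes run a molecular clock in which CLOCK and BMAL1 (gene Arntl) activate genes with E-box sequences. These include the period and cryptochrome repressors and the REV-ERB repressors (genes Nr1d1 and Nr1d2), which in turn silence Arntl and Cry1. Because mice on this schedule eat in their active phase, clock time and meal time coincide in these 6 libraries, and what each contributes to a difference between ZT06 and ZT18 cannot be told apart here.

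The 6 libraries held between 4764513 and 7519759 counts. Replicate 1 stood apart at both times. It had the fewest counts at each time (4764513 and 5724327), the lowest share of mitochondrial transcripts (2.07% and 2.87%, against 4.59% to 5.76% in the other 4 libraries) and the steepest relation of levels to the GC content of transcript 3′ ends. Hepatocyte marker genes summed to between 38885 and 46975 CPM (counts scaled to a library total of 1000000) in the 6 libraries. The 7 endothelial markers summed to 365, 327 and 336 CPM at ZT06 and to 268, 244 and 264 CPM at ZT18, so the groups did not overlap, although 3 against 3 libraries cannot reach an exact two-sided p below 0.10. The 8 Kupffer cell markers summed to 1400.1, 564 and 1138 CPM at ZT06 and to 599, 431 and 602 CPM at ZT18, which overlapped. Of all markers of hepatocytes, Kupffer, endothelial and stellate cells, 0 passed the test described next, with either sign. With the replicate number as a block, 1 of 8 Kupffer cell markers was called lower. In that fit 1 of 8 periportal hepatocyte markers was called higher and 1 lower, against 4.64% and 5.13% of all genes. With bulk tissue, fewer cells of a type and less RNA per cell cannot be told apart. Of 3 cholangiocyte markers tested, Sox9 was called higher (1.14, SE 0.31), while the other 2 lay below 0 and the median was -0.08. The 6 cholangiocyte markers summed to between 13.2 and 21.4 CPM at ZT06 and between 24.1 and 35.8 CPM at ZT18, with Cftr at 0. Erythroid markers summed to between 2276 and 2569 CPM at ZT06 and between 2579 and 4010.4 CPM at ZT18. The neutrophil marker Ly6g, the acinar cell markers Prss2, Ctrb1, Pnlip and Cpa1 and the adipocyte markers Plin1 and Lep were at 0 in all 6 libraries. The sums of these lists were above 0. Neutrophil markers summed to 6.5, 6.0 and 5.8 CPM at ZT06 and 4.4, 2.9 and 3.0 CPM at ZT18, without overlap. Acinar cell markers summed to 168, 73.2 and 186 CPM at ZT06 and 135, 85.5 and 111 CPM at ZT18, with overlap. Adipocyte markers summed to 2.52, 0.54 and 3.73 CPM at ZT06 and 0.70, 0.13 and 2.53 CPM at ZT18, also with overlap. The part of these shifts in the results was not tested.

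Of 12712 genes tested, 544 (4.28%) differed between ZT18 and ZT06 at an adjusted p below 0.05, and these are called higher or lower in what follows. They split into 242 genes higher at ZT18 (1.90%) and 302 lower (2.38%). The median log2 difference was 1.41 among the genes called higher and -1.19 among those called lower, and 179 and 198 of them, respectively, differed by at least 1 on the log2 scale. Over all genes tested the median log2 difference was 0.002 and the median size 0.42. The CPM values of the groups did not overlap for 191 of the 242 and 282 of the 302, where 5.61% and 9.22% of all genes tested were without overlap in the same direction. ZT06 was the lowest of the 6 night-restricted times for 176 of the 242 genes called higher, and the highest for 213 of the 302 called lower. ZT18 was the highest of the 6 times for 121 of those called higher and the lowest for 174 of those called lower. Among these genes an extreme at ZT06 was more frequent than one at ZT18. They were selected for a difference between those times, which favours extremes there, so the counts do not locate turning points.

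The number of genes called depended on single libraries. It was 234 without ZT06 replicate 1, 834 without ZT06 replicate 2, 353 without ZT06 replicate 3, 1135 without ZT18 replicate 1, 188 without ZT18 replicate 2 and 256 without ZT18 replicate 3. Of the 544 genes, 65 higher and 62 lower were called in all 6 of these fits, and such a gene is described below as called with any 1 library left out. With the replicate number as a block, 1242 genes (9.77%) were called, 590 higher (4.64%) and 652 lower (5.13%), among them 241 of the 242 higher and all 302 lower genes above. The spread was estimated over all 72 libraries. From the 18 night-restricted libraries alone 97 genes were called, and from the 6 libraries alone 0 genes, with 937 at an unadjusted p below 0.05 and a smallest adjusted p of 0.0946.

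The 10 genes of smallest p in each direction, among those at 10 CPM or more on average and with no overlap between the groups, were called with any 1 library left out and from the 18 night-restricted libraries alone. Among the higher genes were Ppp1r3b, Ahsa2, Hsph1, Cry1, Hspa4l, Tsc22d3, Nfic and Sfpq. The lower genes were Nr1d2, Trib3, Rcl1, Cirbp, Fbxo21, Nr1d1, Npc1, Dbp, Abcg8 and Agtr1a. Cry1, Nr1d1, Nr1d2 and Dbp are members of the core clock list, and Hsph1 and Hspa4l of the heat shock list. Levels below are given in CPM for replicates 1, 2 and 3 in that order. Log2 differences come from the fitted model, which scales libraries for composition and so can differ slightly from the ratio of CPM values.

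**Figure D1:**
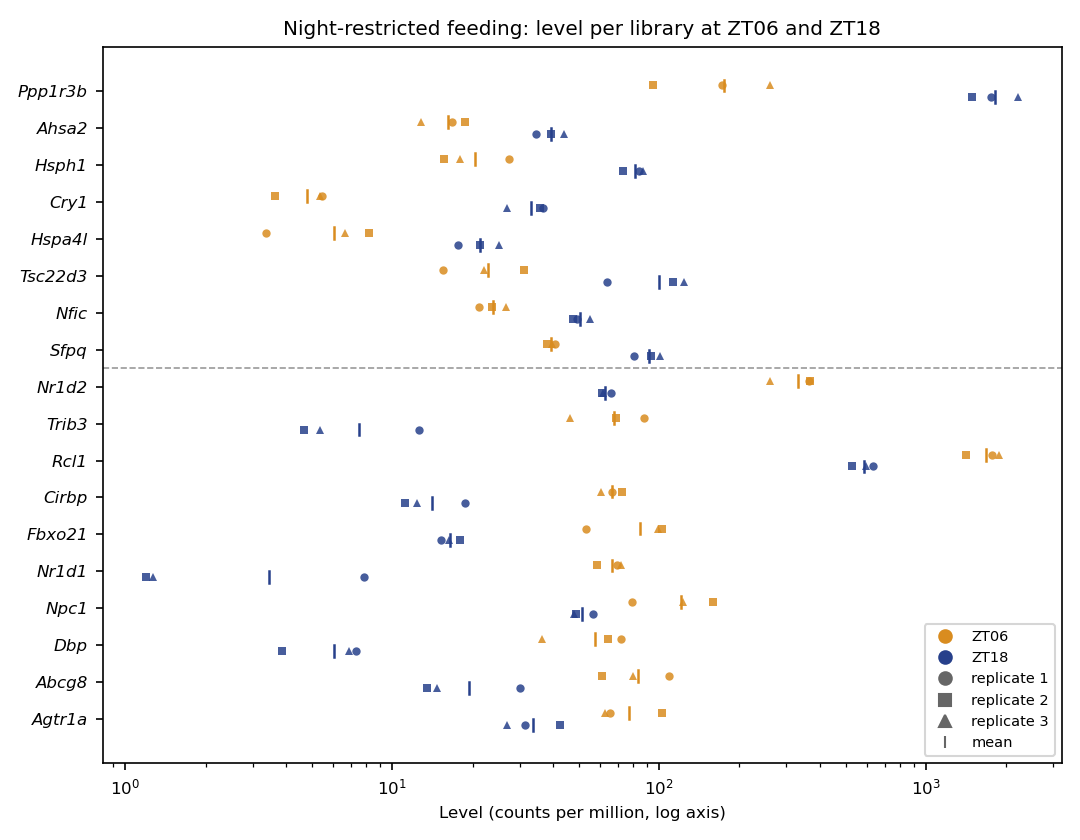
Level in CPM (log axis) of 18 of the 20 genes of smallest p in each of the 3 night-restricted libraries at ZT06 (orange) and ZT18 (blue). Symbols give the replicate and ticks the mean. For the 8 genes above the dashed line every ZT18 library lay above every ZT06 library, and for the 10 below it the order was reversed.

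Among clock genes, the REV-ERB genes and Dbp were low and Cry1 high at ZT18. Of the 19 core clock genes tested, 4 were called higher and 4 lower, which is 42.1% against 4.28% of all genes, and the median log2 difference of the list was 0.03. Nr1d1 (chr11:98767932-98775333, GRCm38), which encodes the repressor REV-ERBα, was at 69.7, 58.6 and 71.9 CPM at ZT06 and 7.86, 1.2 and 1.27 CPM at ZT18. The ZT18 libraries of replicates 2 and 3 were close to zero and that of replicate 1 was several times higher, yet well below every ZT06 library (log2 difference -4.29, SE 0.64, adjusted p = 8.11e-06). Its paralog Nr1d2, encoding REV-ERBβ, was at 364, 367 and 261 CPM at ZT06 and 65.9, 60.9 and 61.5 CPM at ZT18 (log2 difference -2.42, SE 0.30, adjusted p = 2.43e-07). Its 3 ZT18 libraries were close together, and for both genes every ZT18 library lay below every ZT06 library.

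The cryptochrome gene Cry1, whose product represses CLOCK and BMAL1, was at 5.46, 3.63 and 5.36 CPM at ZT06 and 36.9, 35.6 and 26.9 CPM at ZT18, a fitted 6.85-fold difference (log2 difference 2.78, SE 0.38, adjusted p = 2.39e-06). The period gene Per2 was at 2.10, 19.5 and 3.08 CPM at ZT06 and 19.6, 45.4 and 46.2 CPM at ZT18 (log2 difference 2.15, SE 0.54, adjusted p = 0.0126), with ZT06 replicate 2 just under ZT18 replicate 1. That call was lost without ZT06 replicate 1, ZT18 replicate 2, ZT06 replicate 3 or ZT18 replicate 3 (highest adjusted p = 0.130). Per1, Per3 and Cry2 were not called (log2 differences -0.07, -1.16 and -0.63). Npas2, Ciart, Bhlhe40 and Rora were not called either (1.45, -1.02, 1.07 and 0.03). Bhlhe41, encoding the E-box repressor DEC2, was at 5.25, 16.7 and 6.33 CPM at ZT06 and 0.349, 0.798 and 1.55 CPM at ZT18 (log2 difference -3.37, SE 0.57, adjusted p = 7.51e-05) and was called with any 1 library left out. Arntl was at 0.210, 0.134 and 1.3 CPM at ZT06 and 1.05, 8.25 and 7.04 CPM at ZT18, so the level at ZT18 rested on replicates 2 and 3 (log2 difference 3.28, SE 0.89, adjusted p = 0.0227). Its call was lost without ZT06 replicate 1, ZT06 replicate 2, ZT18 replicate 2 or ZT18 replicate 3 (highest adjusted p = 0.145), and its partner Clock differed by 0.04 with an SE of 0.24.

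The D-box activator Dbp, a direct output of the clock, was at 72.2, 64.5 and 36.5 CPM at ZT06 and 7.34, 3.86 and 6.90 CPM at ZT18 (log2 difference -3.29, SE 0.52, adjusted p = 2.26e-05). The related activators Tef and Hlf and the opposing repressor Nfil3 were not called (log2 differences -0.68, 0.06 and 0.98). Of 13 clock output genes tested, 4 were called higher and 1 lower (against 1.90% and 2.38% of all genes), with a median log2 difference of 1.15. The signalling regulator gene Rgs16, whose product switches off G proteins, was at 7.56, 136 and 31.7 CPM at ZT06 and 1.57, 2.13 and 1.27 CPM at ZT18 (log2 difference -5.08, SE 0.95, adjusted p = 0.000381), uniformly low at ZT18 and widely spread at ZT06. Chka, the choline kinase that starts phosphatidylcholine synthesis, was at 12.0, 16.8 and 14.8 CPM at ZT06 and 43.2, 118 and 84.5 CPM at ZT18 (log2 difference 2.45, SE 0.42, adjusted p = 0.000106), with every ZT18 library above every ZT06 library. Tubb2a, a tubulin gene whose reads can be shared with its near copy Tubb2b, was at 33.0, 105 and 175 CPM at ZT06 and 303, 533 and 391 CPM at ZT18 (log2 difference 1.98, SE 0.41, adjusted p = 0.00185). The other genes called higher were Noct, the circadian deadenylase nocturnin (2.17, SE 0.53), lost without ZT06 replicate 3, and Lgalsl, a galectin-like gene (1.15, SE 0.26), lost without ZT18 replicate 1 (adjusted p = 0.0649 and 0.0544). From the 18 night-restricted libraries alone Rgs16 and Chka were called and Tubb2a was not (adjusted p = 0.106).

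The promoters of Cry1 and Bhlhe41 are shown because both genes were called, in opposite directions, and both carry the E-box. Cry1 lies at chr10:85185077-85185146 and Bhlhe41 at chr6:145865536-145865605, both on the minus strand of GRCm38.p6, and RefSeq is the source. Each stretch is printed from 5′ to 3′ on the gene's strand, with the E-box in capitals.
Cry1: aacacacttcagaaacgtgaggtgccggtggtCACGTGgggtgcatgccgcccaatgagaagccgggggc
Bhlhe41: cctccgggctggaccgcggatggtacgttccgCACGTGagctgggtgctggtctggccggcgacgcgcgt
The E-box searched was CACGTG on both strands of a window from 250 bases before to 50 bases after the start. It was present for 5 of the 16 core clock genes with a window (31.2%). The share was 11.9% of the 9289 tested genes with a window and 8.09% of all 27025 genes with one. Other lists had similar shares, among them glucocorticoid-responsive genes (33.3%) and genes of glucose uptake, glycolysis and glycogen (28.6%), so the share is not particular to the core clock list. Of the 10 clock output genes with a window 0 held it. The other 3 core clock genes with the motif, Tef, Ciart and Per1, were not called, and a match is a description of the letters only.

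Glycogen regulation held the gene with the smallest p of the comparison. Of 26 genes of glucose uptake, glycolysis and glycogen tested, 3 were called higher and 1 lower (against 1.90% and 2.38% of all genes), with a median log2 difference of 0.02. Ppp1r3b (chr8:35375739-35388139, GRCm38), the liver subunit that brings protein phosphatase 1 to glycogen and activates glycogen synthase, was at 172, 95.1 and 260.2 CPM at ZT06 and 1755, 1489.8 and 2219 CPM at ZT18. The lowest ZT18 library was several times above the highest ZT06 library, and the fitted difference was 10.2-fold (log2 difference 3.35, SE 0.36, adjusted p = 7.47e-09). Another glycogen-targeting subunit, Ppp1r3g, went the other way, at 6.72, 8.73 and 7.95 CPM at ZT06 and 0.874, 0.399 and 0.986 CPM at ZT18 (log2 difference -3.41, SE 0.81, adjusted p = 0.00763), although its call was lost without ZT18 replicate 2 (adjusted p = 0.0913). Ppp1r3c, a further such subunit, was at 98, 178 and 127 CPM at ZT06 and 436, 463 and 170.1 CPM at ZT18 (log2 difference 1.43, SE 0.39, adjusted p = 0.0252), and its call was lost without ZT06 replicate 1, ZT18 replicate 1, ZT18 replicate 2 or ZT06 replicate 3 (highest adjusted p = 0.145). The count of 4 became 2 without ZT18 replicate 2. The glycogen phosphorylase gene Pygl was not called (-0.33, SE 0.27).

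Genes of gluconeogenesis and fasting gave 1 call among 25 tested of 27 listed, or 4.00% against 4.28% of all genes, with a median log2 difference of -0.004. The called gene was Foxo3, a transcription factor restrained by insulin, at 52.5, 61.1 and 40.3 CPM at ZT06 and 31.6, 34.3 and 28.7 CPM at ZT18 (log2 difference -0.72, SE 0.22, adjusted p = 0.0464). Its call was lost without ZT06 replicate 1, ZT06 replicate 2, ZT18 replicate 2 or ZT18 replicate 3 (highest adjusted p = 0.228). Pck1, encoding the cytosolic PEPCK of gluconeogenesis, was at 42.4, 229.6 and 161 CPM at ZT06 and 28.0, 339 and 395 CPM at ZT18, with more spread within each time than between them (log2 difference 0.79, SE 0.97). With the replicate block 5 genes of the list were called, 2 higher and 3 lower (against 4.64% and 5.13% of all genes), and these were Foxo3, the glucose-6-phosphatase G6pc, the pyruvate carboxylase Pcx and the insulin receptor substrates Irs1 and Irs2. The count became 3 without ZT18 replicate 1. Mpc2, a subunit of the mitochondrial pyruvate carrier, was not called (0.50, SE 0.22).

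Lipid synthesis showed a few called genes, all of them higher at ZT18. Of 31 lipogenesis genes tested 4 were called higher and 0 lower (against 1.90% and 2.38% of all genes), with a median log2 difference of 0.27. Mid1ip1, whose product promotes the assembly of acetyl-CoA carboxylase into active filaments, was at 10.1, 50.8 and 35.1 CPM at ZT06 and 81.8, 203 and 147 CPM at ZT18 (log2 difference 2.17, SE 0.37, adjusted p = 9.07e-05) and was called with any 1 library left out. Within each replicate number the ZT18 library was the higher, and the groups did not overlap. Pnpla3, a lipid droplet acyl hydrolase induced by feeding, was at 0.630, 0.269 and 0.812 CPM at ZT06 and 2.80, 7.98 and 21.3 CPM at ZT18 (log2 difference 4.23, SE 1.01, adjusted p = 0.00808), from a level of a few reads. Elovl6, which elongates palmitate, was at 15.1, 71.7 and 30.0 CPM at ZT06 and 61.7, 127 and 238 CPM at ZT18 (log2 difference 1.87, SE 0.46, adjusted p = 0.0107), and the groups overlapped. Thrsp, encoding the lipogenic protein Spot 14, was the other called gene (2.24, SE 0.61).

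Calls for lipid synthesis were sensitive to single libraries. Pnpla3 was not called without ZT18 replicate 3 (adjusted p = 0.0993), Elovl6 not without ZT06 replicate 1, ZT06 replicate 3 or ZT18 replicate 3 (highest adjusted p = 0.167), and Thrsp not without ZT18 replicate 1, ZT06 replicate 2, ZT06 replicate 3 or ZT18 replicate 3 (highest adjusted p = 0.107). From the 18 night-restricted libraries alone 0 of the 31 genes were called, with adjusted p = 0.0659 for Mid1ip1. With the replicate block 7 were called higher and 1 lower (against 4.64% and 5.13% of all genes), among them Fasn, the fatty acid synthase gene, at 1110.3, 908 and 1247 CPM at ZT06 and 4593, 2222 and 3437 CPM at ZT18 (log2 difference 1.65, adjusted p = 0.0683 without the block and 0.0180 with it). Scd1, the stearoyl-CoA desaturase, was at 11559, 13714 and 7303 CPM at ZT06 and 8465, 6221 and 8025 CPM at ZT18 and was not called (-0.53, SE 0.35). The list count became 1 without ZT18 replicate 3.

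Cholesterol synthesis also gave calls in 1 direction. Of 27 genes tested 4 were called higher and 0 lower (against 1.90% and 2.38% of all genes), with a median log2 difference of 0.41. The calls lay among sterol sensing genes (2 of 7) and early enzymes (2 of 11), and 0 of 9 late enzymes were called, a difference between these classes that was not tested. Lss, encoding lanosterol synthase, was at 3.78, 8.60 and 9.09 CPM at ZT06 and 15.9, 32.3 and 28.7 CPM at ZT18 (log2 difference 1.82, SE 0.32, adjusted p = 0.000134). Insig1, whose product holds the sterol regulatory factors in the ER, was at 44.5, 66.2 and 61.2 CPM at ZT06 and 76.3, 133 and 117 CPM at ZT18 (log2 difference 0.90, SE 0.18, adjusted p = 0.00154). In both genes every ZT18 library lay above every ZT06 library, and both were called with any 1 library left out. Insig1 was not called from the 18 night-restricted libraries alone (adjusted p = 0.0649). With the replicate block 7 genes of the list were called, all higher (against 4.64% of all genes). Insig2, the isoform driven by fasting in liver, was at 1282, 688 and 1198 CPM at ZT06 and 1046, 869.8 and 587 CPM at ZT18 and was not called (-0.37, SE 0.35).

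Sterol export genes were lower at ZT18. ABCG5 and ABCG8 form the dimer that pumps cholesterol into bile. Abcg8 was at 109, 61.3 and 79.9 CPM at ZT06 and 30.1, 13.6 and 14.8 CPM at ZT18 (log2 difference -2.11, SE 0.34, adjusted p = 3.11e-05). Abcg5 was at 77.0, 74.6 and 72.4 CPM at ZT06 and 36.5, 34.7 and 46.8 CPM at ZT18 (log2 difference -0.95, SE 0.21, adjusted p = 0.00277), and neither gene's groups overlapped. Abcg5 was not called from the 18 night-restricted libraries alone (adjusted p = 0.135). Npc1, whose product moves cholesterol out of lysosomes, was at 79.3, 159.6 and 122 CPM at ZT06 and 56.8, 48.7 and 48.2 CPM at ZT18 (log2 difference -1.21, SE 0.19, adjusted p = 1.82e-05). Of the 15 genes of bile acid synthesis and transport tested, 1 was called higher and 2 lower (against 1.90% and 2.38% of all genes), with a median log2 difference of -0.07. The higher gene was Cyp7a1, the rate-limiting enzyme of bile acid synthesis, at 10.3, 40.2 and 10.6 CPM at ZT06 and 38.8, 71.8 and 62.2 CPM at ZT18 (log2 difference 1.5, SE 0.46, adjusted p = 0.0453). Its call was lost without ZT06 replicate 1, ZT18 replicate 2, ZT06 replicate 3 or ZT18 replicate 3 (highest adjusted p = 0.267) and with library totals in place of composition scaling (adjusted p = 0.0710). The count of 3 became 2 in those fits. Slco1b2, an organic anion importer, was at 125, 844 and 681 CPM at ZT06 and 113, 654 and 937 CPM at ZT18, with replicate 1 far below the other libraries at both times, and was not called (0.04, SE 0.67).

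Fatty acid oxidation and ketogenesis gave 2 calls among 28 genes tested, 1 in each direction (7.14%, near the 4.28% of all genes), with a median log2 difference of -0.02. Cpt1a, encoding the carnitine transferase that admits fatty acids to mitochondria, was at 154, 199.9 and 154 CPM at ZT06 and 85.4, 106 and 116 CPM at ZT18 (log2 difference -0.75, SE 0.19, adjusted p = 0.0131), without overlap. That call was lost without ZT06 replicate 1 or ZT18 replicate 2 (highest adjusted p = 0.0733), and the count was then 1. Acot1, a cytosolic acyl-CoA thioesterase with near-identical neighbours, was at 85.4, 78.2 and 52.3 CPM at ZT06 and 173, 260.1 and 166 CPM at ZT18 (log2 difference 1.43, SE 0.26, adjusted p = 0.000319), and its assignment among them is uncertain. Fabp1, the fatty acid binding protein of liver, was at 1292, 4739.8 and 3823 CPM at ZT06 and 2261, 7189.9 and 6701 CPM at ZT18, with replicate 1 the lowest at both times, and was not called (0.70, SE 0.42). Ketogenic enzymes gave 0 calls among 3.

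Heat shock proteins had the largest share of calls of the gene lists with 5 or more members tested. Of 20 genes tested 10 were called higher and 0 lower (against 1.90% of all genes called higher), with a median log2 difference of 0.98, and 19 of the 20 lay above 0. These chaperones and co-chaperones fold client proteins in the cytosol and mitochondria and are induced together by the factor HSF1. Hsph1, an HSP110 nucleotide exchange factor, was at 27.5, 15.6 and 18 CPM at ZT06 and 83.9, 73.1 and 87.2 CPM at ZT18 (log2 difference 1.96, SE 0.27, adjusted p = 1.6e-06). Its relative Hspa4l was at 3.36, 8.19 and 6.65 CPM at ZT06 and 17.6, 21.4 and 25.1 CPM at ZT18 (log2 difference 1.80, SE 0.26, adjusted p = 5.99e-06). The small heat shock protein gene Hspb1 was at 4.83, 4.84 and 5.36 CPM at ZT06 and 19.4, 15.2 and 16.2 CPM at ZT18 (log2 difference 1.75, SE 0.32, adjusted p = 0.000279), and none of these groups overlapped. Hsp90aa1, the inducible HSP90, was at 63.2, 61.8 and 77.4 CPM at ZT06 and 167, 199 and 339.8 CPM at ZT18 (log2 difference 1.76, SE 0.39, adjusted p = 0.00324) and was not called without ZT18 replicate 3 (adjusted p = 0.0514). The constitutive Hsp90ab1 was at 1586, 1213 and 1748 CPM at ZT06 and 2249, 2053 and 3250.3 CPM at ZT18 and was called with the replicate block only (adjusted p = 0.0620 without it and 0.0130 with it).

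Called heat shock genes came from each class of the list: 3 of 6 HSP70 and HSP110 genes, 4 of 7 HSP90 and co-chaperone genes and 3 of 7 others. Hspa8, Chordc1 and Cacybp (log2 differences 1.38, 1.41 and 0.96) were called with any 1 library left out, as were Hsph1, Hspa4l and Hspb1. Ahsa1, Bag3 and Hspe1 (log2 differences 0.69, 1.41 and 1.17) lost their calls without 4, 2 and 4 of the 6 libraries in turn. The list count stayed between 7 and 12 in those 6 fits, with 7 without ZT18 replicate 3, and was 5 from the 18 night-restricted libraries alone. Ahsa2, a relative of the HSP90 activator Ahsa1 and outside the list, was at 16.8, 18.8 and 12.8 CPM at ZT06 and 34.6, 39.2 and 44.2 CPM at ZT18 (log2 difference 1.26, SE 0.17, adjusted p = 1.56e-06). Cirbp, an RNA-binding protein that is induced by cold and repressed by warmth, went the other way at 66.5, 72.8 and 60.4 CPM at ZT06 and 18.7, 11.2 and 12.4 CPM at ZT18 (log2 difference -2.24, SE 0.32, adjusted p = 3.16e-06). Its relative Rbm3 was at 47.9, 28.8 and 27.4 CPM at ZT06 and 29.2, 25.7 and 30.0 CPM at ZT18 and was not called (-0.34, SE 0.27). Body temperature was not among the data used here.

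Promoters of 3 called heat shock genes are shown because each holds a heat shock element, the binding sequence of HSF1. The element searched was GAA, TTC and GAA, or TTC, GAA and TTC, with 2 free bases between the blocks, on both strands, and its matches, which overlap one another in Chordc1 and Hspe1, are in capitals. The stretches lie at chr5:149636266-149636335 (minus strand), chr9:18292239-18292309 (plus strand) and chr1:55088033-55088102 (plus strand) of GRCm38.p6 and come from RefSeq.
Hsph1: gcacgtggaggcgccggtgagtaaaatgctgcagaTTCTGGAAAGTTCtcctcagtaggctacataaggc
Chordc1: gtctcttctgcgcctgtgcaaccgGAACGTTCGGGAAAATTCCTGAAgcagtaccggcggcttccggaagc
Hspe1: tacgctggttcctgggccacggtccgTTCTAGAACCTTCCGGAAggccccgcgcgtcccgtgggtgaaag
Of the 17 genes of the list with a promoter window 4 held the element (23.5%), against 0.662% of all genes with a window. The fourth was Hspd1, the divergent neighbour of Hspe1, which was not called (log2 difference 0.30, SE 0.13).

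Chaperones of the endoplasmic reticulum leaned the same way with fewer calls. Of 29 genes tested of 30 listed, 4 were called higher and 0 lower (against 1.90% and 2.38% of all genes), with a median log2 difference of 0.63, and 25 of 29 lay above 0. Creld2 and Manf encode secreted proteins induced by ER stress. Creld2 was at 5.25, 2.42 and 5.03 CPM at ZT06 and 10.7, 14 and 21.5 CPM at ZT18 (log2 difference 1.83, SE 0.36, adjusted p = 0.000745). Manf was at 8.82, 18 and 16.9 CPM at ZT06 and 20.8, 64.2 and 70.5 CPM at ZT18 (log2 difference 1.79, SE 0.38, adjusted p = 0.00210), and both were called with any 1 library left out. In both the groups did not overlap, though the gap for Manf was small because of replicate 1. Ern1, encoding the sensor IRE1α, was at 14.5, 14.2 and 14.6 CPM at ZT06 and 21.0, 40.4 and 25.9 CPM at ZT18 (log2 difference 0.97, SE 0.25, adjusted p = 0.0134), very even at ZT06, and was not called without ZT18 replicate 2 or ZT06 replicate 3 (highest adjusted p = 0.206). Spcs2, a signal peptidase subunit, was not called without ZT06 replicate 1, ZT18 replicate 2 or ZT18 replicate 3 (log2 difference 0.78, highest adjusted p = 0.184). From the 18 night-restricted libraries alone 0 genes of the list were called (adjusted p = 0.0553 for Creld2). With the replicate block 11 were called higher and 1 lower (against 4.64% and 5.13% of all genes). Leaving out a library gave a count of 6 without ZT06 replicate 2 or ZT06 replicate 3, 11 without ZT18 replicate 1 and 2 without ZT18 replicate 2. The master chaperone gene Hspa5 was at 2511, 1638 and 1991 CPM at ZT06 and 3013, 2547 and 3750.0 CPM at ZT18 and was not called (0.56, SE 0.26).

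The promoter of Creld2 is shown because it holds the ER stress element (CCAAT, 9 free bases and CCACG, searched on both strands), here on the opposite strand, with the match in capitals. It lies at chr15:88819494-88819564 (plus strand, GRCm38.p6, from RefSeq).
Creld2: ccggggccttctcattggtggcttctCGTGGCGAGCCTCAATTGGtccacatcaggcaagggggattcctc
The element was found for 7 of the 24 genes of the list with a window (29.2%) and for 0.137% of all genes with one. The other 6 were Pdia6, Dnajc3, Hsp90b1, Hspa5, Calr and Canx, and none of these was called without the replicate block.

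In the integrated stress response, Trib3 stood out. This pseudokinase, a target of ATF4 and CHOP that restrains the insulin-regulated kinase AKT, was at 87.7, 68.8 and 46.4 CPM at ZT06 and 12.6, 4.65 and 5.35 CPM at ZT18, a fitted 9.09-fold difference (log2 difference -3.18, SE 0.43, adjusted p = 1.6e-06). Atf4 itself differed by 0.03 with an SE of 0.23. Of 11 genes tested of 14 listed, 1 was called lower and 1 higher (against 2.38% and 1.90% of all genes), with a median log2 difference of -0.40. The higher gene was Ddit4, encoding the mTORC1 inhibitor REDD1, at 2.94, 6.45 and 7.63 CPM at ZT06 and 21.1, 18.2 and 22.4 CPM at ZT18 (log2 difference 1.86, SE 0.44, adjusted p = 0.00716). Its call was lost without ZT06 replicate 1 (adjusted p = 0.0811), when the count was 1, and the count was 3 without ZT18 replicate 1. The ATF4 relative Atf5 was at 1116, 489.7 and 1107 CPM at ZT06 and 727, 395 and 454 CPM at ZT18 and was not called (-0.80, SE 0.36).

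Autophagy genes leaned lower at ZT18. Of 19 tested 3 were called lower and 0 higher (15.8% against 2.38% of all genes called lower), with a median log2 difference of -0.42, and 15 of 19 lay below 0. Gabarapl1, a member of the ATG8 family that coats autophagosomes, was at 1491, 1048 and 920.4 CPM at ZT06 and 562, 354 and 249.5 CPM at ZT18 (log2 difference -1.58, SE 0.32, adjusted p = 0.00134) and was called with any 1 library left out, though not from the 18 night-restricted libraries alone (adjusted p = 0.115). Its relative Map1lc3b, encoding LC3B, was at 297, 195 and 194 CPM at ZT06 and 155, 110.1 and 113 CPM at ZT18 (log2 difference -0.89, SE 0.27, adjusted p = 0.0445). Replicate 1 was the highest at both times for both genes. Atg14, a subunit of the lipid kinase that starts autophagosomes, was at 15.1, 21.1 and 24.7 CPM at ZT06 and 11.2, 8.38 and 14.1 CPM at ZT18 (log2 difference -0.86, SE 0.26, adjusted p = 0.0473). Map1lc3b was not called without ZT06 replicate 1, ZT18 replicate 2 or ZT18 replicate 3, and Atg14 not without ZT06 replicate 1, ZT06 replicate 2, ZT18 replicate 2, ZT06 replicate 3 or ZT18 replicate 3 (highest adjusted p = 0.438 and 0.345). The list count was then as low as 1, without ZT06 replicate 1, ZT18 replicate 2 or ZT18 replicate 3. Sqstm1, encoding the cargo receptor p62, was at 185, 188 and 214 CPM at ZT06 and 159.5, 139 and 142 CPM at ZT18 and was not called (-0.43, SE 0.21).

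Iron handling gave 1 call among 13 genes tested (7.69%, near the 4.28% of all genes). Tfrc (chr16:32608920-32632794, GRCm38), the receptor that imports transferrin-bound iron, was at 1.68, 5.78 and 2.27 CPM at ZT06 and 9.43, 37.6 and 29.2 CPM at ZT18 (log2 difference 2.90, SE 0.47, adjusted p = 3.11e-05) and was called with any 1 library left out. Replicate 1 was the lowest at both times and the groups did not overlap. Its ligand gene Trf was at 10342, 11129.9 and 18107 CPM at ZT06 and 13946, 10628 and 16946 CPM at ZT18 and was not called (0.07, SE 0.29).

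Glucocorticoid-responsive genes differed in both directions, with 3 called higher and 1 lower of 14 tested (against 1.90% and 2.38% of all genes) and a median log2 difference of 0.44. Tsc22d3, the leucine zipper gene induced by glucocorticoids, was at 15.5, 31.2 and 22.1 CPM at ZT06 and 63.8, 113 and 124 CPM at ZT18 (log2 difference 2.10, SE 0.31, adjusted p = 7.08e-06). Dusp1, a phosphatase of MAP kinases, was at 3.36, 13.7 and 9.74 CPM at ZT06 and 16.8, 74.6 and 47.6 CPM at ZT18 (log2 difference 2.33, SE 0.54, adjusted p = 0.00574) and was not called without ZT06 replicate 1 or ZT18 replicate 2 (highest adjusted p = 0.0978). Fkbp5, a co-chaperone of the glucocorticoid receptor, was at 5.67, 10.5 and 10.6 CPM at ZT06 and 22.7, 32.5 and 37.5 CPM at ZT18 (log2 difference 1.78, SE 0.49, adjusted p = 0.0264) and was not called without ZT06 replicate 1, ZT18 replicate 2, ZT06 replicate 3 or ZT18 replicate 3 (highest adjusted p = 0.151). The lower gene was the metallothionein Mt1 (-2.49, SE 0.74), not called without ZT06 replicate 1, ZT06 replicate 2, ZT18 replicate 2 or ZT18 replicate 3 (highest adjusted p = 0.228). The list count was 1 without ZT06 replicate 1 or ZT18 replicate 2, and 2 without ZT18 replicate 3. The corticosterone-regenerating enzyme gene Hsd11b1 was not called (0.32, SE 0.22).

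Several other called genes came from lists with 1 or 2 calls, while 4.28% of all genes were called. Methionine and phosphatidylcholine metabolism gave 2 calls among 14 genes, both higher, with Chka among them. Angptl8, a secreted inhibitor of lipoprotein lipase induced by feeding, was at 24.1, 13.6 and 22.1 CPM at ZT06 and 129, 73.3 and 90.0 CPM at ZT18 (log2 difference 2.28, SE 0.53, adjusted p = 0.00602) and was the only call among 11 hepatokines in this fit. It was called with any 1 library left out. Igfbp4, a binding protein of insulin-like growth factors, was at 1118, 1901 and 1374 CPM at ZT06 and 2215, 3679 and 2840.0 CPM at ZT18 (log2 difference 0.97, SE 0.24, adjusted p = 0.00944) but was not called without ZT06 replicate 1, ZT18 replicate 2 or ZT06 replicate 3 (highest adjusted p = 0.113). Igf1 itself was at 432, 536 and 571 CPM at ZT06 and 617, 659 and 747 CPM at ZT18 and was not called (0.38, SE 0.15).

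Calls for Srsf2, Actg1 and Junb were fragile. Srsf2, an SR splicing factor, was at 30.0, 38.8 and 33.8 CPM at ZT06 and 39.1, 82.9 and 68.2 CPM at ZT18 (log2 difference 0.85, SE 0.23, adjusted p = 0.0244) and was lost without ZT06 replicate 1, ZT18 replicate 2, ZT06 replicate 3 or ZT18 replicate 3 (highest adjusted p = 0.242) and with library totals (adjusted p = 0.0516). Actg1, a cytoplasmic actin with a near copy in Actb, was at 1.89, 2.15 and 0.974 CPM at ZT06 and 5.24, 11.8 and 4.37 CPM at ZT18 (log2 difference 2.07, SE 0.55, adjusted p = 0.0195) and was lost without ZT18 replicate 2 or ZT06 replicate 3 (highest adjusted p = 0.222). Actb was at 2196, 1075 and 1676 CPM at ZT06 and 1669.7, 981 and 1228 CPM at ZT18 and was not called (-0.38, SE 0.34). Junb, an immediate early gene, was at 1.47, 18.3 and 20.8 CPM at ZT06 and 1.22, 4.92 and 3.66 CPM at ZT18 (log2 difference -2.03, SE 0.61, adjusted p = 0.0434), with overlapping groups, and was lost without ZT18 replicate 1, ZT06 replicate 2, ZT18 replicate 2, ZT06 replicate 3 or ZT18 replicate 3 (highest adjusted p = 0.196) and with library totals (adjusted p = 0.0654).

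Another 5 of the 20 genes of smallest p are in no gene list. Rcl1, an RNA cyclase-like factor of ribosome assembly, was at 1763, 1414 and 1871 CPM at ZT06 and 632, 529 and 597 CPM at ZT18 (log2 difference -1.54, SE 0.21, adjusted p = 2.39e-06). Fbxo21, a substrate adaptor of a ubiquitin ligase, was at 53.1, 103 and 99.2 CPM at ZT06 and 15.2, 18 and 16.3 CPM at ZT18 (log2 difference -2.36, SE 0.35, adjusted p = 7.08e-06). Agtr1a, the angiotensin II receptor, was at 65.7, 103 and 62.8 CPM at ZT06 and 31.4, 42.6 and 27.0 CPM at ZT18 (log2 difference -1.21, SE 0.20, adjusted p = 3.7e-05). All 3 were lower in every ZT18 library than in every ZT06 library. The higher genes were Nfic, a nuclear factor I transcription factor, at 21.2, 23.6 and 26.6 CPM at ZT06 and 49.1, 47.7 and 55.2 CPM at ZT18 (log2 difference 1.08, SE 0.16, adjusted p = 9.84e-06), and Sfpq, a splicing factor of nuclear paraspeckles, at 40.7, 38 and 39.8 CPM at ZT06 and 80.7, 93.5 and 101 CPM at ZT18 (log2 difference 1.18, SE 0.18, adjusted p = 1.82e-05).

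Other lists held few or no calls, while 4.28% of all genes were called without the block and 9.77% with it. A count of 0 in a list of this length is near the share without the block. Of 21 heme and xenobiotic genes tested of 22 listed 0 were called without the block and 4 with it, all higher. Among those 4 was the glutathione transferase Gsta3, at 873, 2328 and 1785 CPM at ZT06 and 2284, 2684 and 2193 CPM at ZT18 (log2 difference 0.54, adjusted p = 0.0666 without the block and 0.0200 with it). Without ZT06 replicate 2 the list gave 5 calls, and without ZT18 replicate 1 it gave 4. Ribosome biogenesis gave 0 calls among 22 genes tested (median log2 difference 0.05), 2 with the block, and 2 without ZT06 replicate 2 or ZT18 replicate 1. Amino acid catabolism and the urea cycle gave 0 among 26 (median 0.17), 3 with the block, 3 without ZT06 replicate 2 and 1 without ZT18 replicate 1. Their most abundant genes, the nucleolin gene Ncl and the urea cycle gene Ass1, differed by 0.37 (SE 0.29) and -0.10 (SE 0.35).

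For the lists that follow, too, the share of all genes called was 4.28%, or 9.77% with the block. Acute phase genes gave 0 calls among 14 with 12 of 14 below 0 and a median of -0.43, although 2 were called without ZT18 replicate 1. Fgb, a fibrinogen chain, was at 1834, 3565 and 3589 CPM at ZT06 and 2423, 2785 and 2901 CPM at ZT18 and was not called (-0.14, SE 0.27). Cell cycle genes gave 0 calls among 6 tested of 10 listed, and immediate early genes gave 1 (Junb) among 6 of 10. Actin and tubulin genes gave 1 call among 14 (Actg1), SR splicing factors 1 among 16 (Srsf2), and genes of growth hormone and IGF signalling 1 among 10 (Igfbp4). SR splicing factors and growth hormone and IGF signalling gave 2 calls each with the block. Without ZT06 replicate 2 the actin and tubulin list and growth hormone and IGF signalling gave 2 each. The methionine adenosyltransferase Mat1a and the cyclin Ccnd1 differed by 0.24 (SE 0.21) and 0.78 (SE 0.59).

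**Figure D2:**
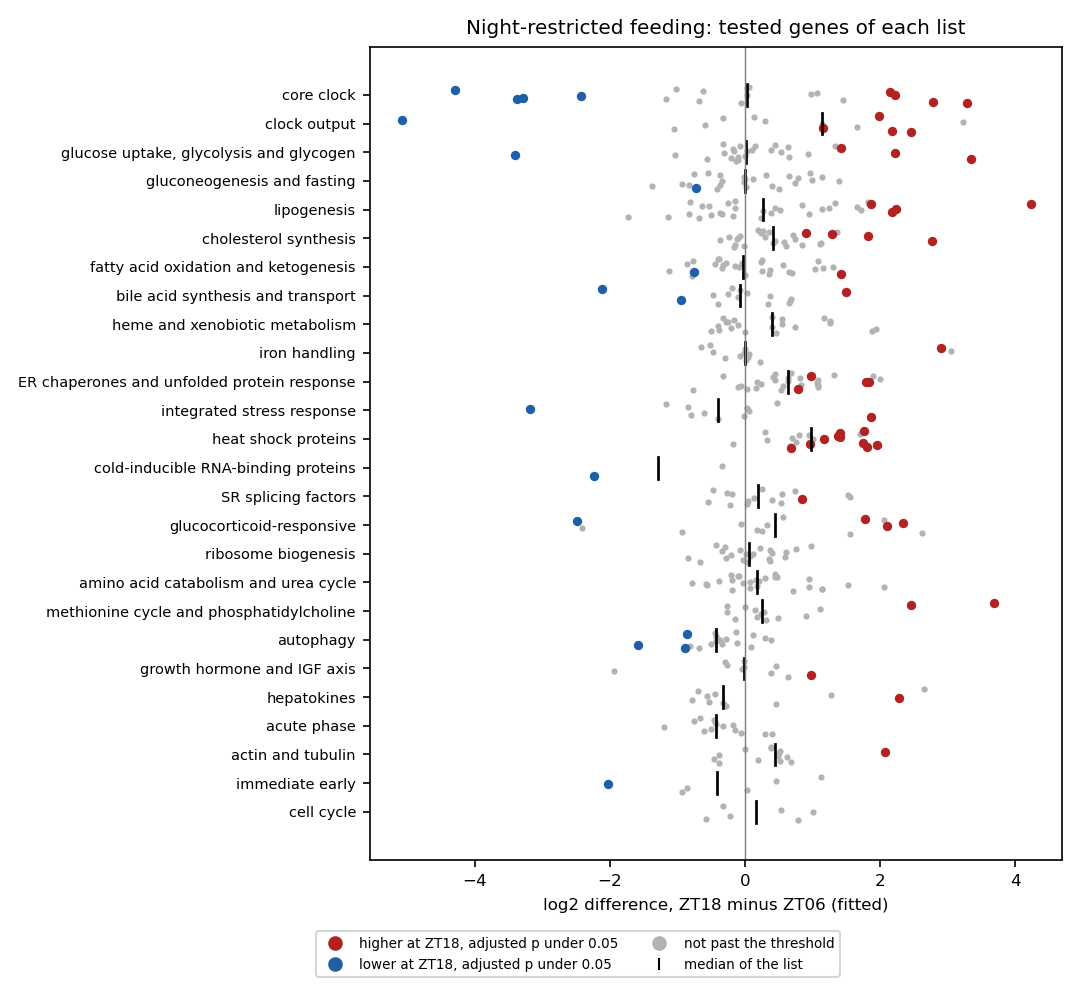
Log2 difference (ZT18 minus ZT06) of every tested member of each gene list, 1 point a gene, with genes called higher or lower coloured and the rest grey. Lines mark the list medians. Heat shock proteins, at a median of 0.98, and clock output genes, at 1.15, lay to the right, and autophagy and acute phase genes, at -0.42 and -0.43, to the left. The 2 cold-inducible genes had a median of -1.29 and integrated stress response genes one of -0.40. Immediate early genes, at -0.41, had 3 members above 0 and 3 below.

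The other times of day placed the comparison within each gene's course. Ppp1r3b was at 176 ± 82.6 CPM (mean ± SD, n = 3) at ZT06, its lowest time, at 1609.8 ± 317 at ZT14 and at its highest, 1821 ± 369, at ZT18. Tfrc was lowest at ZT06 (3.24 ± 2.21 CPM) and highest at ZT14 (44.9 ± 4.72). Both were above their ZT06 level at ZT14, the first dark-phase time sampled. Trib3 was highest at ZT06 (67.6 ± 20.7 CPM) and lowest at ZT14 (4.54 ± 1.21). Nr1d1 was highest at ZT06 (66.7 ± 7.14 CPM) and lowest at ZT22 (2.82 ± 3.28), with 3.44 ± 3.83 at ZT18. Cry1 was lowest at ZT06 (4.81 ± 1.03 CPM) and highest at ZT22 (38 ± 2.20), with 33.1 ± 5.44 at ZT18. For both clock genes the spreads at ZT18 and ZT22 overlapped. Hsph1 was lowest at ZT06 (20.4 ± 6.29 CPM) and highest at ZT14 (142 ± 30.1).

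**Figure D3:**
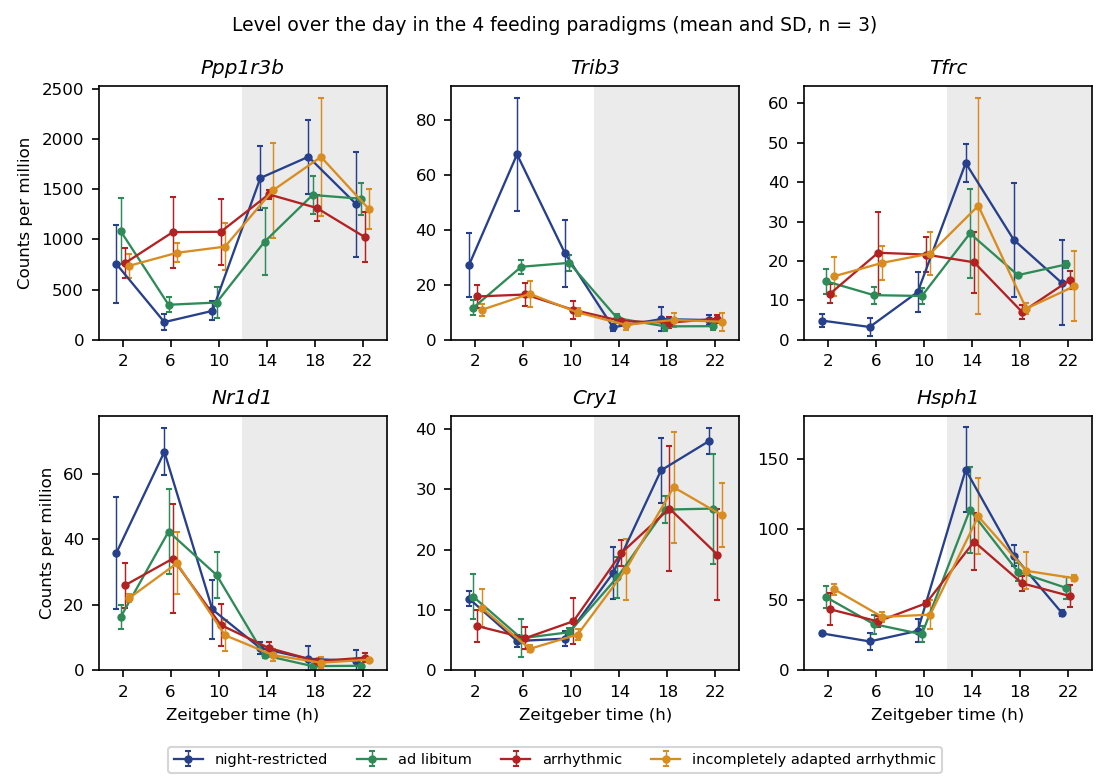
Mean level in CPM (error bars, SD of 3 libraries) of Ppp1r3b, Trib3, Tfrc, Nr1d1, Cry1 and Hsph1 at 6 zeitgeber times in the 4 feeding paradigms, with the dark phase shaded. Under night-restricted feeding ZT06 was the lowest time for all but Trib3 and Nr1d1, for which it was the highest.

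Ad libitum feeding, with food always present, served as the first reference. The difference between ZT18 and ZT06 under night-restricted feeding, minus the same difference under ad libitum feeding, was called for 0 of 12712 genes (0%). At an unadjusted p below 0.05 there were 452 genes (3.56%), and the smallest adjusted p was 0.593. DESeq2 and the replicate block also gave 0. A p above the threshold does not show that the genes behaved alike, and the standard errors were wide.

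The 8 genes of smallest p at 10 CPM or more had an adjusted p of 1 each. They were Tfrc, Cpt1a, Ahsa2, Rgs16, Lss, Insig1, Crybg1 and Ints3. Tfrc differed by 2.90 under night-restricted and by 0.54 under ad libitum feeding on the log2 scale, a gap of 2.37 with an SE of 0.62 (unadjusted p = 0.000325). Cpt1a differed by -0.75 and 0.24, a gap of -0.99 with an SE of 0.27 (unadjusted p = 0.000485). Lss and Insig1 had ad libitum differences of 0.38 and 0.05, against 1.82 and 0.90 under night-restricted feeding. For Rgs16 the values were -5.08 under night-restricted and -0.93 under ad libitum feeding, with an SE of the gap of 1.23. Ints3, a subunit of the Integrator complex, and Crybg1 had gaps of 0.71 (SE 0.22) and -1.12 (SE 0.35). Both were called between ZT18 and ZT06 (0.59 and -0.97), but Ints3 not without ZT06 replicate 1, ZT18 replicate 1 or ZT06 replicate 2, and Crybg1 not without ZT18 replicate 2 (highest adjusted p = 0.0768 and 0.152).

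Arrhythmic feeding, which the labels give by name with no schedule, and the group whose mice adapted to it incompletely served as the second reference. The mean of their differences between ZT18 and ZT06 was subtracted from that under night-restricted feeding. This gap was called for 94 of 12712 genes (0.739%), 49 positive and 45 negative, and for 88 of the 94 the difference was larger in size under night-restricted feeding. These genes were selected for the gap, and the night-restricted difference rests on fewer libraries, which favours a larger size there. The share among all genes is not given here, so that count does not show smaller differences under arrhythmic feeding. At an unadjusted p below 0.05 there were 2239 genes (17.6%). With the replicate block 553 genes were called (4.35%), all 94 among them, and DESeq2 called 177. The count was sensitive to the night-restricted libraries: it was 23 without ZT06 replicate 1, 232 without ZT06 replicate 2, 29 without ZT06 replicate 3, 508 without ZT18 replicate 1, and 9 without ZT18 replicate 2 or ZT18 replicate 3. It was between 36 and 53 without arrhythmic ZT06 replicate 1 or 2 or ZT18 replicate 1, or without incompletely adapted ZT06 replicate 1 or 2 or ZT18 replicate 3. Only Tfrc, Insig1, Mid1ip1, Ppp1r3b and Manf were called with any 1 of the 18 libraries in this contrast left out.

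By list, the calls held 4 of 29 ER genes tested (Hyou1, Dnajb9, Creld2 and Manf), 3 of 31 lipogenesis genes (Mid1ip1, Elovl6 and Pnpla3), 3 of 27 cholesterol genes (Insig1 and Lss among them), 2 of 26 glucose and glycogen genes (Ppp1r3b among them) and 2 of 16 SR splicing factors (Srsf2 and Srsf3). The 5 genes that did not depend on any 1 library differed between paradigms in direction or size. They came from the iron, lipogenesis, cholesterol, glucose and glycogen, and ER lists. Tfrc differed by 2.90 under night-restricted and by -1.36 on average under arrhythmic feeding, a gap of 4.27 (SE 0.56, adjusted p = 4.62e-06). In livers of the arrhythmic group it was at 22.1 ± 10.4 CPM at ZT06 and 7.05 ± 1.72 CPM at ZT18, so the order of the times was opposite to that under night-restricted feeding. Ppp1r3b differed by 0.79 in the arrhythmic groups, a gap of 2.56 (SE 0.41, adjusted p = 0.000234). It was at 1071 ± 354 CPM at ZT06 in livers of the arrhythmic group, above the night-restricted level at that time, and at 1312 ± 129 CPM at ZT18. In the incompletely adapted group Ppp1r3b was at 865 ± 96.2 CPM at ZT06 and 1820 ± 590 CPM at ZT18, so the ZT18 mean was near the night-restricted one. Mid1ip1 differed by -0.52 in the arrhythmic groups, a gap of 2.69 (SE 0.44, adjusted p = 0.000425). Insig1 and Manf differed there by -0.67 and -0.71, with gaps of 1.57 (SE 0.23, adjusted p = 3.39e-05) and 2.50 (SE 0.46, adjusted p = 0.00352).

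The 8 genes of smallest p in this contrast also held Mgea5. Mgea5, encoding the enzyme that removes O-linked GlcNAc from proteins, was at 52.7, 48.5 and 47.4 CPM at ZT06 and 28.5, 25.0 and 27.2 CPM at ZT18 (log2 difference -0.90, SE 0.17, adjusted p = 0.000314) and had a gap of -1.04 (SE 0.20, adjusted p = 0.00706). That gap was not called without night-restricted ZT06 replicate 1 or ZT18 replicate 2 (highest adjusted p = 0.0540).

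In this contrast 0.739% of all genes were called, so a count of 0 in a list of this length is near the share of all genes. Of the 19 core clock genes 0 were called without the block, and of the 13 clock output genes 1, Noct (gap 2.4, SE 0.62). Nr1d1 differed by -4.29 under night-restricted and by -3.68 under arrhythmic feeding, and its gap of -0.61 had an SE of 0.73. Cry1 differed by 2.78 and 2.84 (gap -0.07, SE 0.45), and Dbp by -3.29 and -3.69 (gap 0.40, SE 0.60). Among core clock genes, the gap of smallest p was that of Per2, which differed by 2.15 and -0.05 (gap 2.20, SE 0.65). Next by p were Nr1d2 (-1.11, SE 0.35), Cry2 (-0.90, SE 0.30) and Bhlhe40 (1.77, SE 0.65). The adjusted p-values of these genes by edgeR were 0.0904, 0.124, 0.148 and 0.176. Ciart (2.08, SE 1.18) and Npas2 (1.98, SE 1.39) had larger gaps than Nr1d2, Cry2 and Bhlhe40, with wider SEs. Per2 and Nr1d2 were called with the replicate block (adjusted p = 0.0289 and 0.0412), as was the clock output gene Tubb2a (0.0213). An uncalled gap does not show that the differences were equal. Among heat shock proteins 1 of 20, Chordc1, was called in this contrast without the block (gap 1.35, SE 0.35). Hsph1 differed by 0.98 under arrhythmic feeding (gap 0.98, SE 0.31), and its gap was called with the block (adjusted p = 0.132 without it and 0.0392 with it), as were those of Hspa4 and Dnaja1 (0.0439 and 0.0271).

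**Figure D4:**
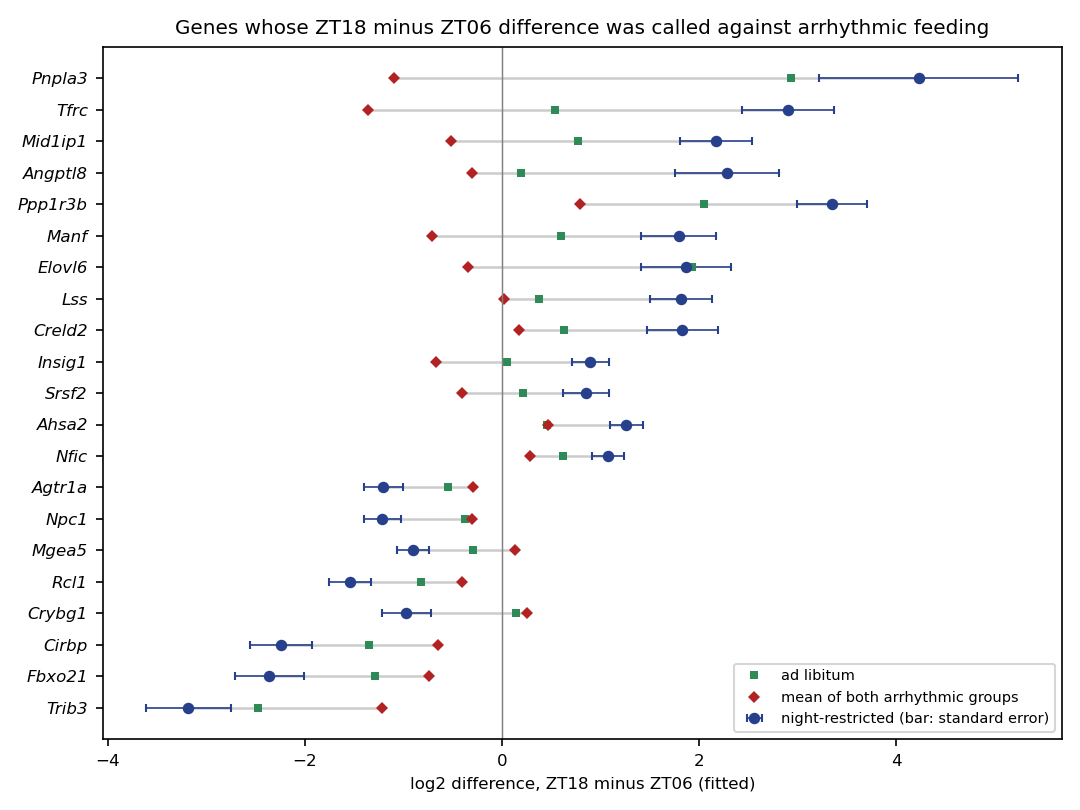
Log2 difference (ZT18 minus ZT06) of 21 named genes called against the arrhythmic groups, under night-restricted feeding (circles, bars show the SE), ad libitum feeding (squares) and as the mean of both arrhythmic groups (diamonds). Tfrc lay at 2.90 under night-restricted feeding and on the other side of 0 in the arrhythmic groups.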

How the data were processed

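Liver RNA was extracted with TRIzol and made into Lexogen QuantSeq 3′ libraries, per the labels' protocols, and aligned with STAR 2.4.2a to mm10 (GRCm38.p5), per the submitters' processing notes. The sources used here do not give the counting tool, annotation or strand setting, so reads of overlapping or antisense genes could not be told apart. The authors deposited raw counts for 51912 genes in 72 libraries and a second table of 11508 genes named TPM, whose values equal CPM (counts scaled to a library total of 1000000). A total of 279 gene IDs had no symbol.

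Counts were fitted with edgeR 4.0.16 (R 4.3.3) by quasi-likelihood with robust spread over all 72 libraries, 24 group means, TMM scaling and the filterByExpr filter, and p-values were adjusted by the Benjamini-Hochberg method over 12712 genes. DESeq2 1.42.0 was an alternative. All 72 table columns were mapped by name. The fit was tested on simulated data without paired replicates, in which 50 genes were changed at each fold size at night-restricted ZT18. It recovered 3 of 50 changed 1.5-fold, 16 changed 2-fold, 40 changed 4-fold and 47 changed 8-fold. There were 6 false calls among unchanged genes. Small differences can therefore be missed, and a gene not called may still differ.

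Named genes were the 10 of smallest p per direction at 10 CPM or more without overlap, the 3 of smallest p past and the most abundant not past the threshold in each list, all core clock genes, and the 8 of smallest p at 10 CPM or more in each contrast of paradigms. Ppp1r3c, Pygl, Pck1, G6pc, Pcx, Irs1, Irs2, Thrsp, Fasn, Hsp90aa1, Hspa4, Dnaja1, Hspa8, Chordc1, Cacybp, Ahsa1, Bag3, Hspe1, Hspd1, Spcs2, Hyou1, Dnajb9, Srsf3, Atf4, Mt1, Sox9 and the genes named only for their promoter motif fall outside this rule and were chosen after their values were seen. Some genes that the rule names are not reported here. The comparison, gene lists and tests were chosen with earlier results of these data known.

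Replicate numbers, from the sample titles, were checked for pairing. Deviations of same-numbered ZT06 and ZT18 libraries from their group means correlated at 0.684, 0.681 and 0.390. ZT18 replicate 3 correlated almost as well with ZT06 replicate 2 (0.351), so these values do not show that replicate 3 is paired. The main fit did not pair the samples. The block was fitted as an alternative, which rests on the assumption that the numbers pair them. Other alternatives were other scalings, filters, sample sets, a GC term and leaving out libraries.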

Additional observations from a re-analysis of the deposited data

Results flagged for a closer look

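The difference between ZT18 and ZT06 itself differed between night-restricted feeding and the mean of both arrhythmic groups for 21 of the named genes reported here, by edgeR's test of that gap with Benjamini-Hochberg adjustment over 12712 genes. All values here are gaps on the log2 scale, with 3 libraries per group. Genes of glycogen and lipid metabolism and its regulation were Ppp1r3b at 2.56, Mid1ip1 at 2.69, Pnpla3 at 5.32, Elovl6 at 2.21, Lss at 1.79, Insig1 at 1.57 and Angptl8 at 2.59. Tfrc was at 4.27, and the ER stress genes Creld2 and Manf were at 1.66 and 2.50. Ahsa2 was at 0.80, Nfic at 0.79 and Srsf2 at 1.26. The gap was negative for Trib3 (-1.97), Rcl1 (-1.13), Cirbp (-1.59), Fbxo21 (-1.62), Npc1 (-0.91), Agtr1a (-0.91), Crybg1 (-1.23) and Mgea5 (-1.04). Of the 21, Ppp1r3b, Mid1ip1, Insig1, Tfrc and Manf were called with any 1 of the 18 libraries left out. The cause of these gaps was not tested.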

How the results depend on the processing

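The direction of every named gene that was called held under all alternatives, and the count of calls moved. Against 544 genes called (242 higher and 302 lower) there were 228 (109 and 119) with no filter on low counts, 876 with a GC term (441 higher), 97 (56 and 41) from the 18 night-restricted libraries, and 0 higher and 0 lower from the 6 libraries alone. Leaving out 1 library gave 188 to 1135 (102 to 485 higher, 86 to 650 lower), and leaving out a replicate number 138 to 243 (74 to 97 higher, 64 to 146 lower). DESeq2 called 705, and the other scalings and the filter at 10 CPM stayed within 1.5 times. Against ad libitum feeding 0 genes became 1 with the GC term and 2 with the GC term and block. Against the arrhythmic groups 94 became 13 with no filter, 177 with DESeq2, 148 with the GC term, 9 to 508 without 1 library and 6 to 41 without a replicate number. The cause of these shifts was not tested.

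With the replicate block the counts were 1242 (590 higher and 652 lower), and against the arrhythmic groups 553. With the block and the GC term they were 1063 (547 higher and 516 lower) and 180, and with the block in the 6 libraries alone 2675 (1604 and 1071). Among genes chosen by the naming rule, the block changed the calls of Gsta3 and Hsp90ab1 between ZT18 and ZT06, given above, and no other. Among genes named outside it, Fasn, G6pc, Pcx, Irs1, Irs2, Dnaja1, Dnajc3, Hyou1 and Pdia6 were called with the block only. Against the arrhythmic groups the block added Hsph1, Sfpq, Nr1d2, Abcg8, Per2, Tubb2a, Insig2, Ern1, Gabarapl1, Map1lc3b and Actg1 among genes chosen by the rule.

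Of the 58 named genes called, 12 were not called with no filter, 3 with library totals and 26 from the night-restricted libraries. From the 6 libraries alone 57 were not called, and the remaining gene was not tested in that fit. How detection depended on the level of a gene was not tested.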

Other observations

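Some of the clearest differences outside the gene lists, chosen after their values were seen, concerned a lipid sensor and collagen modification. Ppard, encoding the nuclear receptor PPARδ, was at 1.05, 1.75 and 1.46 CPM at ZT06 and 13.8, 13.7 and 10.1 CPM at ZT18, without overlap (log2 difference 3.13, SE 0.38, adjusted p = 1.88e-07). P4ha1 and P4ha2 encode catalytic subunits of prolyl 4-hydroxylase, the enzyme that hydroxylates collagen. P4ha2 was at 2.10, 1.48 and 1.62 CPM at ZT06 and 8.04, 9.44 and 7.18 CPM at ZT18 (log2 difference 2.25, SE 0.29, adjusted p = 4.84e-07). P4ha1 was at 1.47, 3.22 and 4.71 CPM at ZT06 and 8.56, 11 and 13.4 CPM at ZT18 (log2 difference 1.79, SE 0.28, adjusted p = 2.26e-05). Every ZT18 library lay above every ZT06 library for both. Celsr1, an atypical cadherin, was also higher (log2 difference 2.37, SE 0.35, adjusted p = 7.53e-06). The acetyltransferase-like genes Nat8f5, Nat8f6 and Nat8f7 differed by 4.00, 4.06 and 4.01, but they are near-identical copies and reads could be split among them. All 7 genes were called with any 1 of the 6 libraries left out.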
